A study of Homo sapiens with 13 samples.

Results

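FOXA1 peaks of the histone and MHC region were described in Ishikawa and Hec1A cells, established human lines from endometrial cancer. The members were all deposited peaks on chromosome 6 whose centre lay from 25700000 to 33500000 in hg19. They numbered 215 of 54855 peaks in the Ishikawa list and 74 of 13252 peaks in the Hec1A list, or 289 of 68107 peaks in both. Position alone chose them, and all 289 were used.

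The labels describe 13 libraries of chromatin immunoprecipitation and sequencing (ChIP-seq), in which DNA cross-linked to FOXA1 is recovered with an antibody and sequenced. Ishikawa has 6 FOXA1 ChIP libraries with 2 of input, and Hec1A has 3 FOXA1 ChIP libraries with 2 of input; input is chromatin that was not immunoprecipitated. The antibody was the same rabbit anti-FOXA1 in both lines, and the labels name no treatment and do not say whether libraries came from separate cultures. Each line has 1 list, called on 343739762 pooled Ishikawa tags and on 143055568 pooled Hec1A tags, where a tag is the mapped end of a sequenced fragment. Ishikawa peaks were filtered against input, whereas the recorded Hec1A command names no input, although the name of the Hec1A list does. Pooling leaves no replicate error, so intervals below cover counting error alone, treat peaks as independent, and are set beside the values as description with no test. Peak values are the authors' own, and peak signal is the tag number of a peak per 10000000 tags.

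FOXA1 is a forkhead transcription factor that can bind compacted chromatin and open it for other factors, among them the oestrogen receptor in breast and endometrial cells. The region holds the largest human cluster of replication-dependent histone genes, which are transcribed when DNA is copied. It then holds the major histocompatibility complex (MHC), in which class I genes encode molecules that present peptides to cytotoxic T cells. Class II genes encode molecules that present peptides to helper T cells. Class III, between them in position, holds complement, heat shock and cytokine genes.

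RefSeq's GRCh38.p14 table lists 55 protein-coding histone genes on chromosome 6. That build is not the one of the peaks, so it served for names alone, and no peak was assigned to a gene. The 7.8 Mb of the region make up 4.57% of the span between the first and last peak of chromosome 6.

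The first comparison asked whether FOXA1 peaks were denser there than on the rest of chromosome 6. Ishikawa had 27.6 peaks per Mb in the region (95% Poisson interval 24.0 to 31.5) and 21.2 on the rest of the chromosome (20.5 to 21.9), a ratio of 1.30 (1.13 to 1.49). Hec1A had 9.49 peaks per Mb in the region (7.45 to 11.9) and 4.05 on the rest (3.74 to 4.37), a ratio of 2.34 (1.82 to 2.99). The region thus held 5.87% of the Ishikawa peaks and 10.1% of the Hec1A peaks of the chromosome. Ishikawa had 2.91 times as many peaks as Hec1A in the region (2.22 to 3.84) and 5.23 times as many on the rest of the chromosome (4.81 to 5.70). Among peaks at least 8 times as high as their local region, the Hec1A density ratio was 3.61, over 33 and 191 peaks. The fold used for this cut had a higher Hec1A median in the region (7.41 against 6.06), so this ratio is not independent of that fold.

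Windows of the region's width were placed along the chromosome for comparison. The 20 other windows held 56 to 219 Ishikawa peaks, with a median of 176, and 1 of them held more than the 215 of the region, the adjoining window from 17.9 to 25.7 Mb. In Hec1A the other windows held 11 to 54 peaks, with a median of 32, and all lay below the 74 of the region. The 327 windows of other autosomes reached 269 peaks in Ishikawa and 113 in Hec1A, and 15 Ishikawa windows and 12 Hec1A windows equalled or exceeded the region. Similar or higher counts were therefore present elsewhere in the genome.

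**Figure D1:**
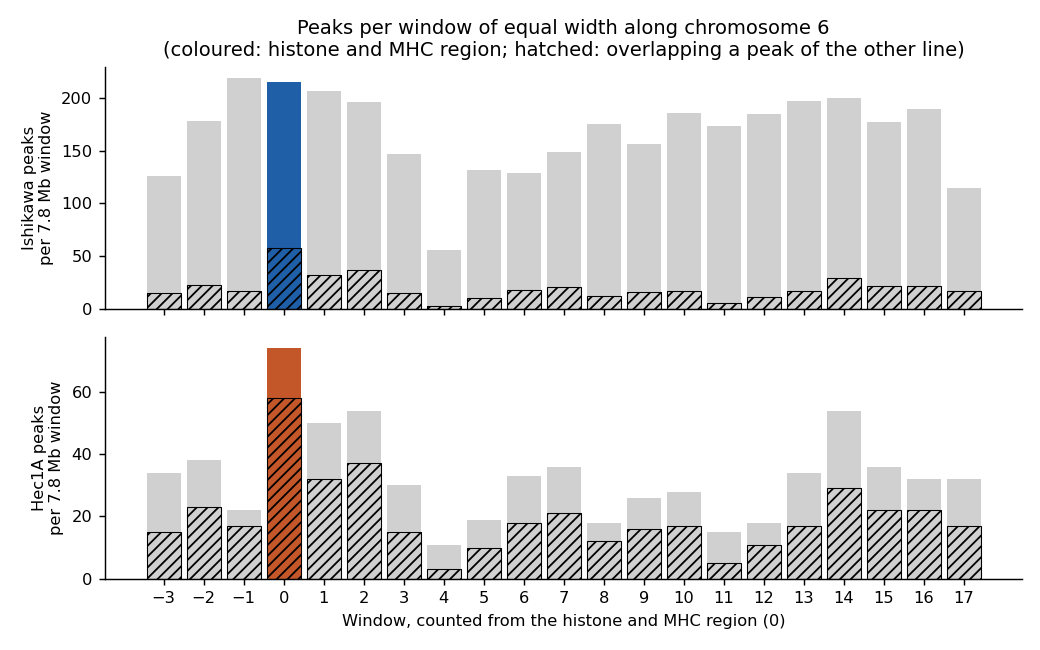
Number of peaks (vertical axes) in windows of 7.8 Mb along chromosome 6 (horizontal axis, counted from the region), for Ishikawa above and Hec1A below; the coloured bar is the histone and MHC region and hatching marks peaks that overlap a peak of the other line. The region's 74 Hec1A peaks exceed the 54 of the next highest window, while its 215 Ishikawa peaks lie just under the 219 of the adjoining window.

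The second comparison concerned the height of the peaks. The median signal of Ishikawa peaks was 11.1 in the region (order-statistic 95% interval 9.25 to 12.7) and 9.69 on the rest of the chromosome (9.43 to 9.95). In Hec1A it was 4.79 in the region (4.12 to 5.24) and 4.96 on the rest (4.54 to 5.17). Both intervals of the region met those of the rest, so no difference in median signal over all peaks was resolved by counting alone. Among Hec1A peaks at least 8 times as high as their local region, the median was 7.06 in the region and 9.79 on the rest. That ratio was 0.721, or 0.507 to 0.914 from the interval of the region's median. The cut was made on the fold given next, so this ratio is not independent of that fold. The fold over the surrounding 10000 bp was 7.39 in the region and 6.86 on the rest in Ishikawa, with intervals of 6.84 to 8.24 and 6.73 to 7.0. In Hec1A it was 7.41 in the region and 6.06 on the rest, with intervals of 6.41 to 8.34 and 5.78 to 6.35. By this measure the Hec1A peaks of the region stood higher above their surroundings than those of the rest of the chromosome.

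The same values can be stated as a tag level around the peaks. The local background, taken as peak signal over the fold to the surrounding 10000 bp, had a median of 0.648 tags per 10000000 in the region and 0.777 on the rest of the chromosome in Hec1A. In Ishikawa it was 1.36 in the region and 1.36 on the rest. Of the 20 other windows of chromosome 6, 1 had a lower Hec1A median. Input tags per Ishikawa peak had a median of 5 in the region and 5 on the rest, with means of 5.65 and 5.26. The background is computed from the signal and the fold, so its lower Hec1A median restates the higher fold and is no separate measurement.

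The focus ratio, a fraction that is high where tags gather tightly at the peak centre, had a median of 0.806 in the region (0.79 to 0.828) and 0.832 on the rest (0.828 to 0.835) in Ishikawa. In Hec1A it was 0.822 in the region (0.8 to 0.841) and 0.827 on the rest (0.82 to 0.836).

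Among the 100 highest-scoring peaks of chromosome 6 in each list, 5 Ishikawa peaks and 8 Hec1A peaks lay in the region, near its 5.87% and 10.1% of all peaks. Among the 10 highest, 1 Ishikawa peak and 0 Hec1A peaks did, and among the 50 highest, 2 and 0. Signal in the region spanned 3.0 to 266.5 in Ishikawa and 2.10 to 15.8 in Hec1A. On the rest of the chromosome it spanned 2.44 to 594.1 in Ishikawa and 1.89 to 1065 in Hec1A. The region held 6.45% of the chromosome's summed peak signal in Ishikawa and 5.14% in Hec1A. Without the 3 highest peaks of the rest in each list, these shares were 6.60% and 7.85%.

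The third comparison asked how many sites the lines had in common. A partner was a peak of the other list that shared at least 1 bp. Of the 215 Ishikawa peaks of the region, 58 had a Hec1A partner, which was 27.0% (95% Wilson interval 21.5% to 33.3%), against 378 of 3449 peaks or 10.96% on the rest of the chromosome (9.96% to 12.05%). Over the whole Ishikawa list 12.8% had one. Of the 74 Hec1A peaks of the region, 58 had an Ishikawa partner, which was 78.4% (67.7% to 86.2%), against 378 of 659 or 57.4% on the rest (53.6% to 61.1%). Over the whole Hec1A list 52.9% had one.

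The share in the region was higher than on the rest of the chromosome by 16.0 percentage points in Ishikawa (Newcombe 95% interval 10.4 to 22.4) and by 21.0 in Hec1A (9.73 to 29.7). Both differences count the same shared sites, so they are not separate results. The Ishikawa share also depends on the density of Hec1A peaks given above. The region's 58 shared sites exceeded the 3 to 37 of the other windows of the chromosome. Those windows had Ishikawa shares of 2.87% to 18.9% and Hec1A shares of 27.3% to 77.3%, so the Hec1A share of the region lay close to that of the highest window. Among peaks at least 8 times as high as their local region in both lists, the Hec1A shares were 63.6% in the region and 61.8% on the rest, a difference of 1.86 points (-16.4 to 17.7) over 33 and 191 peaks. The Ishikawa difference was 30.5 points among Ishikawa peaks at least 8 times as high as input and 32.9 points with the Ishikawa list reduced to the length of the Hec1A list.

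Among peaks of like score, the intervals of the region and the rest were apart in the upper 2 of 4 Ishikawa score classes and overlapped in the other 2 and in all 4 Hec1A classes. In the top 25% of Ishikawa scores, 40 of 69 peaks of the region (58.0%, 46.2% to 68.9%) and 26.2% of those on the rest (23.3% to 29.2%) had a partner. The next 25% gave 26% in the region (15.9% to 39.6%) and 11.2% on the rest (9.27% to 13.5%). The class below gave 6.90% in the region (2.71% to 16.4%) and 4.55% on the rest (3.36% to 6.13%). In the lowest 25% 1 of 38 Ishikawa peaks of the region and 2.01% of those on the rest had one. Hec1A peaks of the lowest 25% of scores had a partner in 60% of cases in the region (35.7% to 80.2%) and in 35.4% on the rest (28.1% to 43.4%). The next class up gave 77.8% in the region (54.8% to 91.0%) and 51.7% on the rest (44.3% to 59.0%), and the one above it 87.5% (69.0% to 95.7%) and 66.5% (59.3% to 72.9%). In the top 25% of Hec1A scores the shares were 82.4% in the region (59.0% to 93.8%) and 73.7% on the rest (66.3% to 80%).

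**Figure D2:**
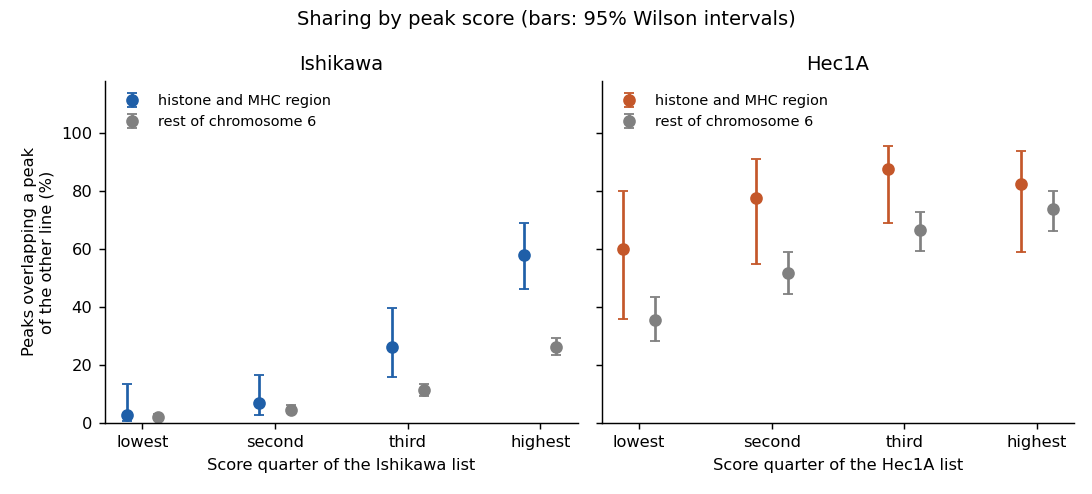
Share of peaks that overlap a peak of the other line (vertical axis, percent) by score in 4 equal classes of each whole list, for the histone and MHC region and the rest of chromosome 6; points are shares and bars are 95% Wilson intervals. In the highest Ishikawa class 58.0% of the region's peaks and 26.2% of the others had a partner, while the intervals overlap in every Hec1A class.

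Peaks of high clonality were less frequent in the region, beyond the counting intervals in Hec1A but not in Ishikawa. Peak calling had already removed putative peaks with a clonal fold above 2, so the comparison covers only the peaks that remained. The clonal fold is high where the tags of a peak stack on few positions. It was above 1 in 40 of 215 Ishikawa peaks of the region (18.6%, 14.0% to 24.3%) and in 25.1% on the rest (23.7% to 26.6%). In Hec1A it was above 1 in 7 of 74 peaks of the region (9.46%, 4.66% to 18.3%) and in 25.9% on the rest (22.7% to 29.4%). Of the Hec1A peaks whose clonal fold did not exceed 1, 54 of 67 in the region (80.6%, 69.6% to 88.3%) and 64.3% on the rest (60% to 68.5%) had a partner. The shares of Ishikawa peaks with such a clonal fold were 32.0% in the region (25.5% to 39.2%) and 13.4% on the rest (12.2% to 14.8%). The difference was thus present within the peaks of low clonality in both lines.

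At the shared sites, Ishikawa signal was the higher one nearly throughout. The median log2 ratio of signal, Ishikawa over Hec1A, was 2.50 over the 58 pairs of the region (2.18 to 2.80), a fold of 5.66, against 1.81 over 378 pairs on the rest of the chromosome (1.69 to 1.97), a fold of 3.51. Shared peaks of the region had a median signal of 28.5 in Ishikawa and 4.89 in Hec1A, and those of the rest had 18.2 in Ishikawa and 5.38 in Hec1A. Ishikawa was higher in 57 of 58 pairs of the region and Hec1A in 1, and Hec1A was higher in 18 of 378 pairs on the rest (4.76%). The region's excess in log2 ratio was 0.69 (0.36 to 0.99 from the interval of its median), and 1.12 among peaks at least 8 times as high as their local region. This excess was uneven over the region, as the values by interval below show. The lines differ in peak width (353 bp in Ishikawa and 254 bp in Hec1A), in depth, and in the share of tags within peaks (9.66% and 1.12%), so the ratio is read against the rest of the chromosome, where these are the same.

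Centres of shared peaks lay close together. Their median distance was 14 bp in the region, 17 bp on the rest and 14 bp over the whole lists. Within 50 bp lay 47 of 58 pairs of the region (81.0%), near the 79.4% on the rest and the 82.2% over the whole lists.

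**Figure D3:**
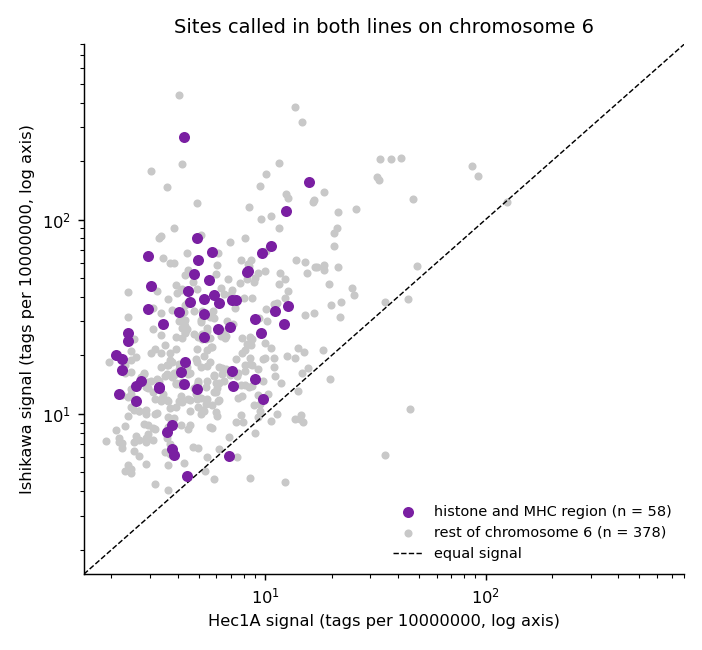
Signal of each site called in both lines on chromosome 6, in tags per 10000000 on log axes, with Ishikawa on the vertical and Hec1A on the horizontal axis; each point is a pair, coloured for the 58 pairs of the region and grey for the 378 on the rest. Of the coloured points 57 lie above the line of equal signal, with a median log2 ratio of 2.50.

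The strongest shared sites lay in several parts of the region. The site ranked first over both lists was chr6:30731912-30732264 in Ishikawa, with a signal of 111.2 in Ishikawa and 12.4 in Hec1A. Its fold over the local region was 80.8 in Ishikawa and 15.8 in Hec1A, and its fold over Ishikawa input was 215.3. The next, in the histone part at chr6:26311943-26312295, had a signal of 156.5 in Ishikawa and 15.8 in Hec1A, and its Hec1A value was the highest of the region. These sites stood out in both lines and their centres lay 1 and 3 bp apart.

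A pair of shared sites marked the far end of the region. At chr6:33257183-33257535 the signal was 73.4 in Ishikawa and 10.6 in Hec1A. At chr6:33167727-33168079 it was 67.6 in Ishikawa and 9.65 in Hec1A. Both lie near the end of the interval named class II, which may run past the class II genes. Their ratios of 6.92 and 7.01 were near one another.

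Of the other 4 sites of highest rank, 2 were of like height. The site at chr6:32121805-32122157 had a signal of 53.6 in Ishikawa and 8.25 in Hec1A, with 13 input tags. The site at chr6:31794675-31795027 had 54.4 in Ishikawa and 8.32 in Hec1A. The highest-scoring Hec1A peak of class III, chr6:31707457-31707711, overlapped an Ishikawa peak with a signal of 26 in Ishikawa and 9.58 in Hec1A. Larger ratios were found at chr6:30070801-30071153, with 68.2 in Ishikawa and 5.73 in Hec1A, and at chr6:28949934-28950286, with 79.9 in Ishikawa and 4.89 in Hec1A.

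The ratio between the lines varied widely among the shared sites. The highest Ishikawa peak of the region, chr6:30675073-30675425, had a signal of 266.5 in Ishikawa and 4.26 in Hec1A, a ratio of 62.6, although its centres differed by 3 bp. The second largest ratio was 22.1, at chr6:30825318-30825670, with 65.0 in Ishikawa and 2.94 in Hec1A. Hec1A was the higher line at chr6:30710538-30710890 alone, with 6.05 in Ishikawa and 6.85 in Hec1A. A ratio near 1 was also seen at chr6:31213737-31214089, with 4.80 in Ishikawa and 4.40 in Hec1A. In the histone part, chr6:26296532-26296884 had 11.9 in Ishikawa and 9.79 in Hec1A, while its fold over the local region was 7.30 in Ishikawa and 29.7 in Hec1A. The last 4 of these sites were chosen after their values were seen.

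Of the region's Ishikawa peaks 157 had no Hec1A partner. Their median signal was 8.26, against 28.5 in those with one, and 9.08 and 18.2 on the rest of the chromosome. The highest by score was chr6:27097244-27097596 in the histone part, with a signal of 70.7 and a Hec1A peak 2.68 kb away. The next was chr6:29935320-29935672, with a signal of 56.5 and the nearest Hec1A peak 57.5 kb away. At chr6:30483868-30484220 the signal was 46.0, and at chr6:30346140-30346492 it was 41.6, with the nearest Hec1A peak 178.5 kb away. The remaining 4 of the 8 highest by score had signals of 25.3 to 37.7, and 3 of them lay in the histone part. Over all 157, the nearest Hec1A peak lay a median of 34.0 kb away.

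Only 16 Hec1A peaks of the region had no Ishikawa partner, and 10 of these lay within 10 kb of an Ishikawa peak (62.5%), against 38.8% of the 281 unpaired Hec1A peaks on the rest of the chromosome. No interval was computed for these shares. Several of the 10 belong to the run of 6 Hec1A peaks described below and lie near the same 2 Ishikawa peaks, so they are not independent. The share also depends on the density of Ishikawa peaks given above. The highest of the 16 by score was chr6:30716192-30716446, with a signal of 12.2, the second highest score of the region, and an Ishikawa peak 5.61 kb away. The next was chr6:32341863-32342117, with 9.37 and an Ishikawa peak 6.16 kb away. The third was chr6:32888652-32888906, with 6.85 and 20.7 kb. The other 5 of the 8 highest by score had signals of 3.36 to 5.94 and lay within 6.70 kb of an Ishikawa peak.

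**Figure D4:**
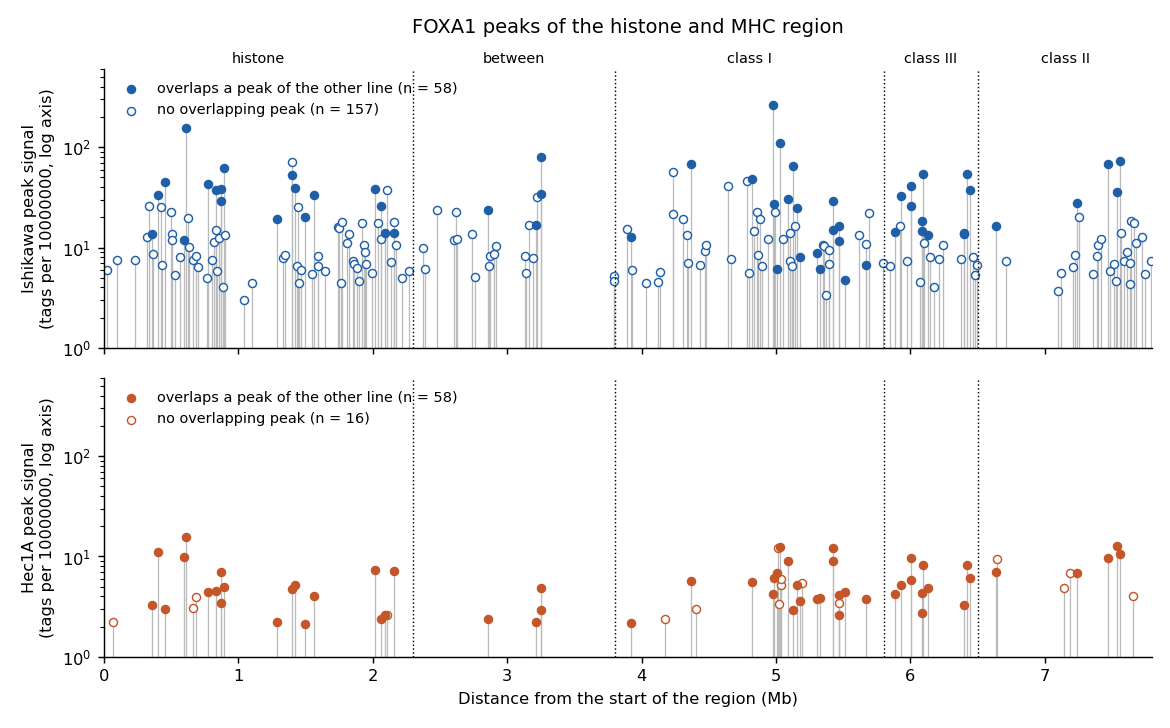
Signal of every peak of the region (tags per 10000000, log axes) against distance from the start of the region in Mb, for Ishikawa above and Hec1A below; filled points overlap a peak of the other line, open points do not, and dotted lines are the approximate borders of the named intervals. The 58 filled points of Ishikawa include its highest peak of 266.5, and the Hec1A peaks crowd near 5 Mb.

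Within the region, peaks were counted in 5 intervals with round borders, set from background knowledge of the gene order and therefore approximate. The histone interval (25.7 to 28 Mb) held 81 Ishikawa and 23 Hec1A peaks, or 35.2 per Mb (28.0 to 43.8) and 10.0 per Mb (6.34 to 15.0). The next interval (28 to 29.5 Mb), which runs through zinc finger and olfactory receptor genes, was the sparsest, with 23 Ishikawa and 4 Hec1A peaks, or 15.3 and 2.67 per Mb. Both values lie below those of the rest of the chromosome, 21.2 and 4.05, with intervals that include them (9.72 to 23 and 0.727 to 6.83).

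Class III and class I were the densest intervals in Hec1A, and class III and the histone interval in Ishikawa. Class I (29.5 to 31.5 Mb) held 57 Ishikawa and 27 Hec1A peaks, or 28.5 per Mb (21.6 to 36.9) and 13.5 per Mb (8.90 to 19.6). Of these, 22 Ishikawa and 18 Hec1A peaks lay in the 0.5 Mb from 30.7 to 31.2 Mb. The Hec1A density of class I thus rests mostly on that stretch. Class III (31.5 to 32.2 Mb) held 25 Ishikawa and 11 Hec1A peaks, or 35.7 per Mb (23.1 to 52.7) and 15.7 per Mb (7.84 to 28.1). Class II (32.2 to 33.5 Mb) held 29 Ishikawa and 9 Hec1A peaks, or 22.3 per Mb (14.9 to 32.0) and 6.92 per Mb (3.17 to 13.1). Of these, 15 Ishikawa and 3 Hec1A peaks lay in its last 0.3 Mb, from 33.2 to 33.5 Mb. The class II interval was drawn to the end of the region, so it may run past the class II genes. The counting interval lay clear of that of the rest of the chromosome in the histone, class I and class III intervals in Hec1A, and in the histone and class III intervals in Ishikawa.

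**Figure D5:**
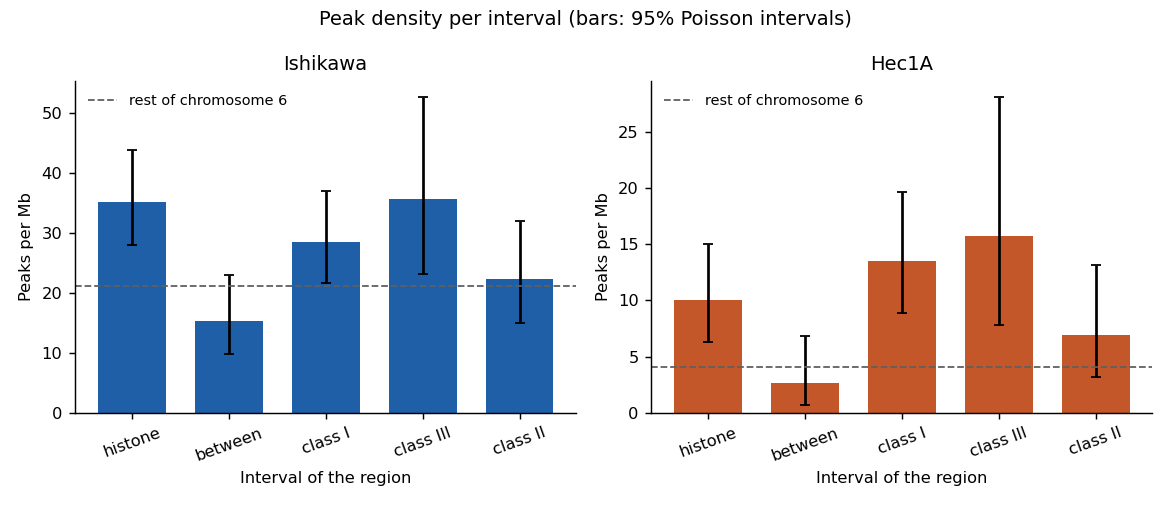
Peaks per Mb in the 5 intervals of the region for Ishikawa (left) and Hec1A (right); bars are densities, whiskers 95% Poisson intervals, and the dashed line the density on the rest of chromosome 6. Class III has the highest density in both lines, 35.7 and 15.7 per Mb, and the interval between the histone genes and class I the lowest, 15.3 and 2.67.

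Sharing and signal also varied between the intervals. All 11 Hec1A peaks of class III (Wilson interval 74.1% to 100%) and all 4 of the interval before class I had an Ishikawa partner. The Hec1A shares were 82.6% in the histone interval, 70.4% in class I and 55.6% in class II, on 23, 27 and 9 peaks. The Ishikawa shares were 44.0% in class III, 33.3% in class I, 23.5% in the histone interval, 17.4% in the interval before class I and 17.2% in class II. The intervals of these shares overlap between neighbours, as from 26.7% to 62.9% in class III and from 22.5% to 46.3% in class I.

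At shared sites the histone interval had a larger median signal ratio between the lines than the MHC intervals, though the ranges overlapped and no counting interval was computed. Its 19 pairs had a median log2 ratio of 3.06 (range 0.28 to 3.91), against 1.99 over the 19 pairs of class I (range -0.18 to 5.97), 2.44 over the 11 pairs of class III (range 1.44 to 2.80) and 2.02 over the 5 pairs of class II (range 1.23 to 2.81). The 4 pairs of the interval before class I had a median of 3.44 (range 2.91 to 4.03). The medians of class I and class II were the nearest to the 1.81 of the rest of the chromosome. The median Hec1A local background was 0.430 in the histone interval, 0.532 in the interval before class I, 0.719 in class I, 0.903 in class III and 0.702 in class II. The Ishikawa medians were 1.5, 1.51, 1.23, 1.46 and 1.18 in the same order. Hec1A tag levels around the peaks were thus lower in the first 2 intervals, where the median ratio was higher, than in the MHC intervals. Their part in the ratio was not tested. These levels are computed from the same peak signals and are not independent of the ratio. The median input tag number of Ishikawa peaks was 5 or 6 in every interval.

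Peaks were unevenly spaced. The median distance between neighbouring peaks was 19.8 kb in the region and 28.4 kb on the rest of the chromosome in Ishikawa, and 41.9 kb and 121.4 kb in Hec1A. Of the peaks of the region, 40.5% in Ishikawa and 29.7% in Hec1A lay within 10 kb of another peak of their list, against 35.1% and 16.8% on the rest. Spacing depends on the densities given above, so these differences are not separate from those in density. The longest stretch with no peak ran from 28953646 to 29491812 in Ishikawa and from 27862409 to 28555044 in Hec1A, both in or next to the interval before class I.

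The longest Hec1A run of close peaks on chromosome 6 lay in class I. Between 30710533 and 30738270, 6 Hec1A peaks each lay within 10 kb of the next, whereas no run on the rest of the chromosome held more than 3. Their signals ranged from 3.36 to 12.4, and 2 of them had an Ishikawa partner. Ishikawa had 2 peaks in this 27.7 kb, with signals of 6.05 and 111.2. The stretch of 0.5 Mb from 30.7 to 31.2 Mb, which holds this run, had 22 Ishikawa and 18 Hec1A peaks. Among the stretches of the region counted in this way, the 1 with a lower ratio of Ishikawa to Hec1A peaks was that from 32.2 to 32.7 Mb, with 2 peaks in each line. In Ishikawa the longest run was of 5 peaks, from 31774016 to 31802748 in class III, of which 3 had a Hec1A partner. Their Ishikawa signals ranged from 4.54 to 54.4, and the 3 Hec1A peaks within had 2.73, 4.33 and 8.32. A run of 8 Ishikawa peaks occurred on the rest of the chromosome.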

How the data were processed

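The tools named in the submitters' processing notes are HOMER 4.7.2, Bowtie 1.1.2 and SAMtools 1.3.1, with hg19 as build. HOMER findPeaks in factor mode gave 1 list from the pooled tags of each line, per the file headers. A putative peak passed a threshold of 88 tags in Ishikawa and 32 in Hec1A, at a false discovery rate of 0.001, and a fold of 4 over the surrounding 10000 bp. In Ishikawa it also passed a fold of 4 over pooled input. The recorded Hec1A command names no input, although the name of the Hec1A list does. In both lines putative peaks with a clonal fold above 2 were removed as too clonal, 12587 in Ishikawa and 25004 in Hec1A. The 2 library kits of the labels are mixed in each ChIP pool. The deposited signal is the tag number per 10000000 tags, and a focus ratio, a fraction, is deposited beside it. The deposited score is a tag number. The deposited folds over local region and input, and the clonal fold, are ratios.

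Densities, medians, partners and pairs were computed with Python 3.11.15, pandas 2.3.3 and SciPy 1.17.1. The finding of partners and the intervals of density ratios and medians were tested on simulated data, the intervals with independent draws. The rest of chromosome 6 is the span of 162.9 Mb between its first and last peak, less the region. Score classes use the quartile borders of each whole list. Named peaks are the 8 shared, 8 Ishikawa-only and 8 Hec1A-only of best rank, and the highest of each interval and line, with exceptions stated. The region, intervals and measures were chosen with earlier results of these data known. Libraries were pooled, so no test over samples was run. Without an hg19 genome, gene position and motifs were not analysed here, and no sequence is shown.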

Additional observations from a re-analysis of the deposited data

How the results depend on the processing

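Over results and settings, 46 alternatives were computed; 37 stayed within the counting interval of the reported value, of which 36 kept their direction and 1 showed no difference, 8 moved outside it and 1 changed direction. Among peaks at least 8 times as high as their local region, the density ratio of the region to the rest of chromosome 6 was 1.55 in Ishikawa and 3.61 in Hec1A, the Hec1A signal ratio 0.721, the Hec1A difference in sharing 1.86 points and the excess log2 ratio of shared sites 1.12. With equal peak numbers the Ishikawa density ratio was 1.73 and the Ishikawa difference in sharing 32.9 points. That difference was 30.5 points among Ishikawa peaks at least 8 times as high as input. Measured as fold over the local region in place of signal, the Hec1A ratio of medians was 1.22 in place of 0.965, and with clonal folds held to 1 or less the Hec1A signal ratio was 1. The stricter settings leave fewer peaks by construction. The cut on the fold over the local region also selects on a value that was higher in the region in Hec1A. Beyond that the cause was not tested. Widening the region by 1 Mb on each side, setting it against all other autosomes, or pairing centres within 100 bp or 1 kb kept every direction. The stricter input fold could not be set in Hec1A, whose list has no such column. The planned look at nearest genes and motifs was left out. Omitting a library could not be tried. No paired analysis was possible because each list merges its libraries.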
